A study of Mus musculus with 10 samples.

Results

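Of 14300 coding transcripts with 1 listed open reading frame (ORF), 400 carried footprints on the 3′ UTR at a mean control value of at least 20 normalised reads, and these 400 3′ UTRs are described here. They held 66.8% and 69.6% of all 3′ UTR footprints in the 2 control libraries, a share that the choice by control reads raises. In the drug libraries they held 30.1% to 41.9% of the 3′ UTR footprints. Of the 3′ UTR reads in the 2 transcriptome libraries they held 18.8% and 18.7%. On 182 of the 400 the region listed as 3′ UTR contains coding sequence of another transcript of the same gene, and on 11 it contains coding sequence of another gene. The remaining large group of 189 3′ UTRs overlaps no coding sequence and no small RNA. At the median, the 182 lost nearly all of their footprints under each drug. The median left was 4.62% of control after DMDA-PatA, 6.09% after harringtonine and 7.40% after puromycin. More than 50% was kept by 6, 17 and 21 of the 182, in the same order. The 189 kept a median of 30.6%, 60.8% and 66.9%, while the ORFs of the same 189 transcripts kept 4.79%, 19.7% and 31.1%. The members were chosen by their mean control 3′ UTR value, so every 3′ UTR value set against control is given as a description with no test.

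A footprint is the stretch of mRNA that a ribosome covers and protects from nuclease. Translating ribosomes leave the mRNA at the stop codon, so the 3′ UTR is normally almost free of footprints. Reads can lie there when a ribosome reads through a stop codon, shifts its frame, restarts downstream or is not removed after termination, when another mRNA isoform is translated over the same stretch, and when a protein or a structured RNA other than a ribosome protects the fragment. DMDA-PatA, a derivative of the natural product pateamine A, acts on the initiation helicase eIF4A. Harringtonine stops ribosomes at the first peptide bonds after initiation while downstream ribosomes run off, and puromycin resembles the end of an aminoacyl-tRNA and releases the nascent chain.

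The cells were CGR8 mouse embryonic stem cells grown without feeder cells on gelatin with LIF. They received no inhibitor (control), 1 µM DMDA-PatA for 10 min, 2 µg/ml harringtonine for 10 min or 0.2 mg/ml puromycin for 20 min, and DMSO was equalised in all samples. Each condition has 2 ribosome profiling libraries, and 2 transcriptome libraries were made from control cells. Cycloheximide, which freezes elongating ribosomes, was present in the buffers of every ribosome profiling sample after harvest. The study calls the libraries of a condition biological replicates, while the labels do not say how far their cultures were separate, and every p-value below measures only the spread between these libraries.

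The deposited values are reads per region scaled by spike-in RNA for the ribosome profiling libraries. They are not divided by length, so reads of different 3′ UTRs also reflect their lengths, and densities are compared only through ratios to transcriptome reads of the same region, in which length drops out. The reads in all regions ranged from 1014783 to 11066209 among the 8 ribosome profiling libraries and were 25352387 and 58905232 in the transcriptome libraries. 3′ UTR reads made up 0.783% and 0.658% of all reads in the control libraries, 2.53% and 2.27% after DMDA-PatA, 2.10% and 1.82% after harringtonine, 1.50% and 1.60% after puromycin, and 31.9% and 33.2% of the transcriptome. All 9 stem cell markers that were looked up had transcriptome reads in the ORF, from 739 to 10409 per kb with a median of 3305. So had 10 of 11 markers of differentiated or feeder cells, from 4.58 to 31655 per kb with a lower median of 180. The highest of these were Acta2 (31655 per kb), smooth muscle actin, and Col1a1 (30848 per kb), a collagen chain. The 3′ UTRs of Col1a1 (39.7 normalised reads in control) and Acta2 (24.3) are both among the 400. In bulk samples such as these, fewer cells of a type and less RNA per cell cannot be told apart.

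The 3′ UTRs with footprints are the upper end of a long tail. In control, 5766 of the 14300 3′ UTRs had no read (688 of these had none in the transcriptome either), 6647 had a mean under 5 normalised reads and 1487 lay from 5 up to the threshold of 20. Of the 400, 326 lay below 100, 144 reached 50, and the highest were Peg10, Lrrc58 and Glod4. The 3 members closest to the threshold were Dcaf7 with 28.3 and 11.8 reads in the 2 control libraries, Wasf2 with 24.8 and 15.4, and Fxyd6 with 17.7 and 22.7. The 3 transcripts just below it were Fstl1 with 23.6 and 16.3, Fgf4 with 15.3 and 24.5, and Pla2g10 with 18.9 and 20.8, so that neighbours on both sides of the threshold overlapped in their control libraries. The 2 control libraries gave similar values over the 400 (Pearson r of the log2 values 0.938 across 3′ UTRs, which are not independent replicates and which share the libraries), with a median ratio of 0.806 between them.

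**Figure D1:**
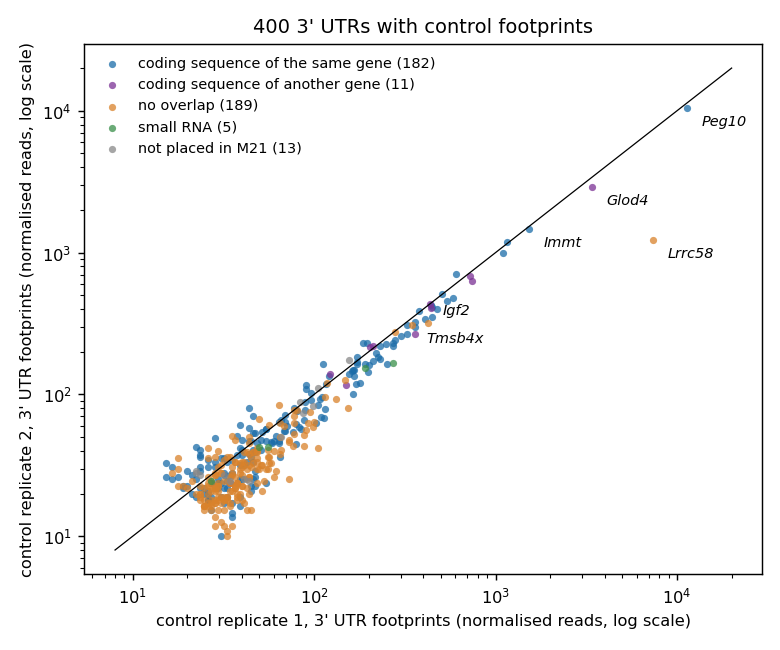
Normalised 3′ UTR reads of the 400 transcripts in the 2 control libraries, on log axes, coloured by what the GENCODE M21 annotation holds inside the 3′ UTR, with the line of equality. Peg10 is the point at the upper right with 11416 and 10505 reads, and Lrrc58 is far off the line with 7355 and 1236.

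The members differed from other coding transcripts in length and abundance, which belong to how such a threshold selects. The median 3′ UTR length was 1413 nt among members and 909 nt over all 14300 transcripts, the median of the transcriptome reads in the 3′ UTR was 1754 against 202, and the median control ORF value was 532 against 169 normalised reads. Their ORFs were shorter, with a median of 663 nt against 1341 nt. The control 3′ UTR value was a median 9.37% of the ORF value among members and 0.141% over all transcripts. Dividing this by the same ratio in the transcriptome gives the footprint density of the 3′ UTR relative to the ORF at equal mRNA, with length removed. This relative density had a median of 6.70% among members and 0.374% over all transcripts. Both measures contain the control 3′ UTR value that chose the members, so they are higher among members by choice. On 52 members the 3′ UTR held more control footprints than the ORF, and 36 of these contain coding sequence of the same gene.

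The annotation, read on the strand of the gene, divides the members into groups. Coding sequence of the same gene lies inside 45.5% of the members' 3′ UTRs and 5.31% of all 14300. The relative density was a median of 26.3% in this group, 39.9% in the 11 3′ UTRs with coding sequence of another gene, 1.44% in the 189 without overlap, 0.457% in the 5 with a small RNA gene and 30.7% in the 13 whose transcript could not be placed in the annotation. The 189 without overlap therefore lay nearest to the median of all transcripts among the groups with more than 5 members, with a few exceptions named below.

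**Figure D2:**
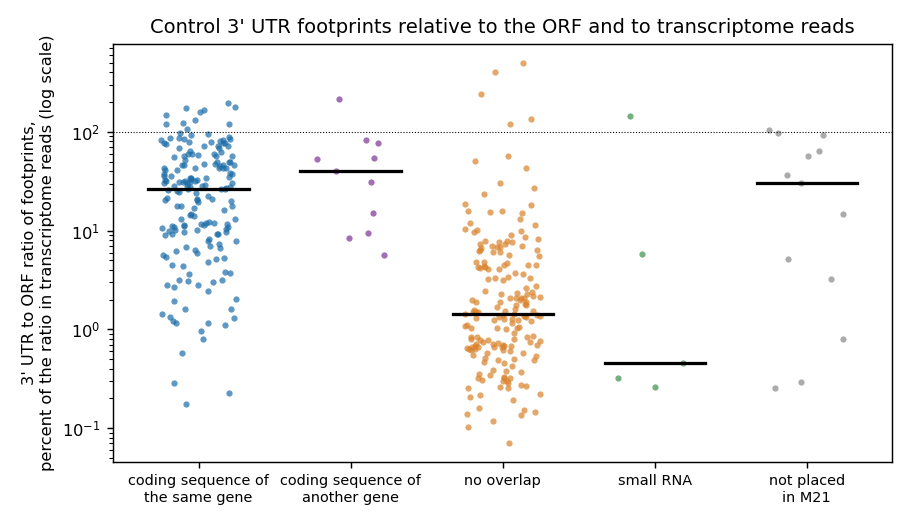
Footprint density on the 3′ UTR relative to the ORF in control, as percent of the same ratio in the transcriptome, for the 400 members by annotation of the 3′ UTR (log axis, 1 point per transcript, bars are medians). The medians are 26.3% with coding sequence of the same gene, 39.9% with that of another gene and 1.44% without overlap.

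The sequences show where the listed ORFs end. Each line gives 30 bases of GRCm38 around the listed stop codon, which is in capitals, read 5′ to 3′ on the strand of the gene. Peg10 lies at chr6:4755337-4755366 on the plus strand, Xbp1 at chr11:5524890-5524919 on the plus strand, Lrrc58 at chr16:37881448-37881477 on the plus strand, Igf2 at chr7:142653801-142653830 on the minus strand, Tmsb4x at chrX:167207486-167207515 on the minus strand and Atp5mpl at chr12:111961495-111961524 on the minus strand. They are shown because the results below turn on these 6 transcripts and because their stop codons differ.
Peg10: ccggccccgctgTAGggggaccttcagcga
Xbp1: acaccaagcctcTAGttttagagatcccct
Lrrc58: gtccttcttggtTGAgcagcaatgggtatt
Igf2: agcaaccatcagTGAatcaaattatgtggt
Tmsb4x: gctggcgaatcgTAAtgaggcgagcgccgc
Atp5mpl: catggccatcacTAActgctccgaatccac
In Peg10 a slippery heptamer precedes the stop codon, at chr6:4755316-4755345 on the plus strand, with the heptamer in capitals. It occurs 1 time in the transcript and ends 15 bases before the end of the listed ORF.
Peg10 heptamer: aattcgccgccGGGAAACtccccggccccg

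The stop codons themselves were those of other transcripts in similar proportion. TGA ended 211 of the 386 members with a stop codon in the annotation (54.7%), TAA 95 (24.6%) and TAG 80 (20.7%), against 51.3%, 25.6% and 23.2% of 13765 transcripts in all. A C directly after the stop codon, a base that favours readthrough in mammalian reporters, followed in 21.8% of members and 23.7% of all. The motif CTAG directly after the stop codon, known from mammalian readthrough mRNAs, followed in 0 of 386 members and in 29 of all transcripts (0.211%). No match says only that these letters are not in this window. The median distance to the next stop codon in frame was 20 codons among members and 18 over all. A difference was seen in the ORFs that begin with AUG inside the 3′ UTR: one longer than 300 nt lay in 101 members (26.2%) and in 12.4% of all transcripts, and in 43 of the 188 members without overlap that had a sequence (22.9%), whose 3′ UTRs are also longer.

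Coding sequence of another gene followed the listed stop codon on 11 3′ UTRs. Examples are Glod4, a glyoxalase domain protein, with Gemin4, a subunit of the SMN complex, and Aars, the alanyl-tRNA synthetase, with Exosc6, a subunit of the RNA exosome. The other pairs with a distinct symbol are Gm38394 with Zc3h11a, Gm49322 with Scamp4, Gm20604 with Moap1, Tymp with Sco2, Dph1 with Ovca2, Pfdn5 with Myg1 and Cog8 with Pdf. The lines below give the start codon, in capitals, of the longest AUG ORF inside each 3′ UTR, to show where a downstream ORF begins. Glod4 lies at chr11:76213883-76213912 on the minus strand, Gm38394 at chr1:133647372-133647401 on the minus strand, Aars at chr8:111056359-111056388 on the plus strand and Chtf8 at chr8:106886195-106886224 on the minus strand. These ORFs are 3141 nt, 2376 nt, 819 nt and 1506 nt long, and those of Gm38394 and Aars start at the annotated start codons of Zc3h11a and Exosc6.
Glod4: atctgtgaggagATGactattctgcatggg
Gm38394: aatttacccagtATGcctaatcagggagaa
Aars: ccggtagccgccATGccgggagaccatcgc
Chtf8: ggagggcctgttATGaacgcaggccaccca

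Peg10 had the highest 3′ UTR read number of all, not divided by length. Peg10 derives from a retrotransposon, is imprinted, and makes a longer protein when ribosomes slip back by 1 base before the listed stop codon. Its 3′ UTR (chr6:4755352-4760517, 5166 nt, of which 1886 nt are coding sequence of another annotated form of the gene) had 11416 and 10505 normalised reads in control, 369 and 409 after DMDA-PatA, 1842 and 1016 after harringtonine and 254 and 400.4 after puromycin. The transcriptome libraries had 204008 and 193303 reads in the same region. All 6 drug libraries lay far below both control libraries, and the harringtonine libraries lay above those of DMDA-PatA and puromycin. The ORF had 19275 and 17936 reads in control, 412 and 569.8 after DMDA-PatA, 3274 and 1788 after harringtonine and 3245 and 2976 after puromycin. Thus 3.55% of the control value was left on the 3′ UTR and 2.64% on the ORF after DMDA-PatA, and 13.0% and 13.6% after harringtonine, so both regions fell alike. Puromycin left 2.99% on the 3′ UTR and 16.7% on the ORF. The ratio of 3′ UTR to ORF was higher after DMDA-PatA than after puromycin by 2.94 ± 0.33 (SE) on the log2 scale (edgeR's quasi-likelihood test, Benjamini-Hochberg adjusted p = 2.7e-09) and higher after harringtonine than after puromycin by 2.44 ± 0.32 (edgeR's quasi-likelihood test, Benjamini-Hochberg adjusted p = 3.9e-07). Between DMDA-PatA and harringtonine the ratio differed by 0.50 ± 0.31, which did not pass the test (edgeR's quasi-likelihood test, Benjamini-Hochberg adjusted p = 0.24).

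Other members with coding sequence of the same gene also lost nearly all footprints under each drug. Immt encodes the core organiser of mitochondrial cristae, and its 3′ UTR (chr6:71874333-71875250, plus strand, 918 nt, 595 nt of them coding in another form) had 1525 and 1467 reads in control, 15.8 and 22.7 after DMDA-PatA, 38.6 and 14.7 after harringtonine and 10.3 and 7.46 after puromycin. Its libraries under each drug lay below 3% of either control library, while the ORF kept 3.79%, 15.0% and 16.3%. Emc8 encodes a subunit of the ER membrane complex, which inserts membrane proteins. Its 3′ UTR (chr8:120657833-120658236, minus strand, 404 nt) had 1159 and 1188 reads in control, 15.2 and 27.6 after DMDA-PatA, 13.2 and 12.6 after harringtonine and 31.0 and 24.9 after puromycin. The ORF of Emc8 kept 11%, 49.3% and 60.7%, so that the 3′ UTR and the ORF parted most under puromycin and harringtonine. Hjurp, the chaperone that deposits the centromeric histone CENP-A, had 1101 and 998 reads on the 3′ UTR in control, 34.1 and 68.2 after DMDA-PatA, 35.5 and 7.70 after harringtonine and 26.9 and 26.1 after puromycin. None of the drug libraries of Immt, Emc8 or Hjurp came near a control library.

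Between drugs, the ratio to the ORF was higher after DMDA-PatA on these 3′ UTRs, as on many others. Of all 1292 3′ UTRs tested, 19.2% were higher after DMDA-PatA than after harringtonine and 39.7% than after puromycin. For Immt the ratio was 3.30 ± 0.54 (SE, log2) higher after DMDA-PatA than after puromycin (edgeR's quasi-likelihood test, Benjamini-Hochberg adjusted p = 4.4e-06). For Emc8 it was 2.73 ± 0.47 higher than after harringtonine (edgeR's quasi-likelihood test, Benjamini-Hochberg adjusted p = 2.2e-05), and for Hjurp 3.52 ± 0.43 higher than after harringtonine (edgeR's quasi-likelihood test, Benjamini-Hochberg adjusted p = 7.8e-08). The same held for Hspa13, a chaperone of the Hsp70 family, whose 3′ UTR had 507 reads in each control library, 16.4 and 41.4 after DMDA-PatA, 15.2 and 7.70 after harringtonine and 8.27 and 12.4 after puromycin. Its ratio was 3.08 ± 0.50 higher after DMDA-PatA than after puromycin (edgeR's quasi-likelihood test, Benjamini-Hochberg adjusted p = 4.3e-06). Sssca1 had 602 and 711 reads on the 3′ UTR in control, 20.2 and 41.4 after DMDA-PatA, 21.3 and 11.2 after harringtonine and 41.4 and 52.2 after puromycin. Its ratio was 2.92 ± 0.42 higher after DMDA-PatA than after harringtonine (edgeR's quasi-likelihood test, Benjamini-Hochberg adjusted p = 1.1e-06). These 5 calls held in every alternative that was run. The DMDA-PatA contrast not printed here passed in 9 of 11 alternatives for Immt and in 6 of 11 for Sssca1. For Emc8, Hjurp and Hspa13 it passed in all 11. The ORFs of Immt and Emc8 kept least after DMDA-PatA, at 3′ UTR values that were low under all 3 drugs.

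Arhgap11a, a GTPase activating protein, shows a wide gap between the regions under puromycin. Its 3′ UTR had 581 and 479 reads in control, 8.21 and 10.6 after DMDA-PatA, 29.4 and 9.80 after harringtonine and 12.4 and 7.46 after puromycin, while its ORF kept 2.46%, 12.7% and 62.2%. The ratio was lower after puromycin than after DMDA-PatA by 4.63 ± 0.68 on the log2 scale (edgeR's quasi-likelihood test, Benjamini-Hochberg adjusted p = 6.4e-07). Zfp703, a zinc finger protein whose listed 3′ UTR of 174 nt is coding sequence of another form throughout, went the other way. It had 441 and 425 reads in control, 10.7 and 18.7 after DMDA-PatA, 35.5 and 16.1 after harringtonine, but 275 and 264 after puromycin. The puromycin libraries lay well above the other drug libraries, and 62.2% of control was left, while its ORF stood at 264% of control. The 3′ UTR value was higher after puromycin than after DMDA-PatA by 4.20 ± 0.58 (written as DMDA-PatA minus puromycin, −4.20; edgeR's quasi-likelihood test, Benjamini-Hochberg adjusted p = 1.9e-10), a call that held under every scaling and left-out library.

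Some members of this group put most of their footprints on the stretch listed as 3′ UTR. Zfp473, a zinc finger protein that takes part in histone mRNA processing, had 274 and 232 reads there in control, which is 747% of its ORF value. After the drugs it had 5.05 and 6.49, 6.09 and 0.700, and 4.14 and 8.70 reads, in the order DMDA-PatA, harringtonine and puromycin. Cers1, a ceramide synthase, shares its mRNA with Gdf1, a growth factor of the TGF-β family, whose coding sequence is the stretch of 1071 nt in the 3′ UTR. There the reads were 173 and 182 in control, 16.4 and 39.0 after DMDA-PatA, 58.8 and 44.1 after harringtonine and 47.6 and 26.1 after puromycin. All drug libraries of both genes lay below both control libraries, and no test between drugs passed for either gene. Dbf4, the activator of the kinase Cdc7, had 541 and 455 reads in control and 3.16 and 7.31 after DMDA-PatA, so 1.05% was left. Eif4a2, which encodes a paralogue of the initiation helicase eIF4A1, was among the 6 of the 182 that kept over 50% after DMDA-PatA, where 17 did after harringtonine and 21 after puromycin. It had 231 and 218 reads on the 3′ UTR in control, 125 and 261 after DMDA-PatA, 294 and 81.2 after harringtonine and 182 and 276 after puromycin, groups that overlap, with only 142 nt of coding sequence in the 1586 nt.

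**Figure D3:**
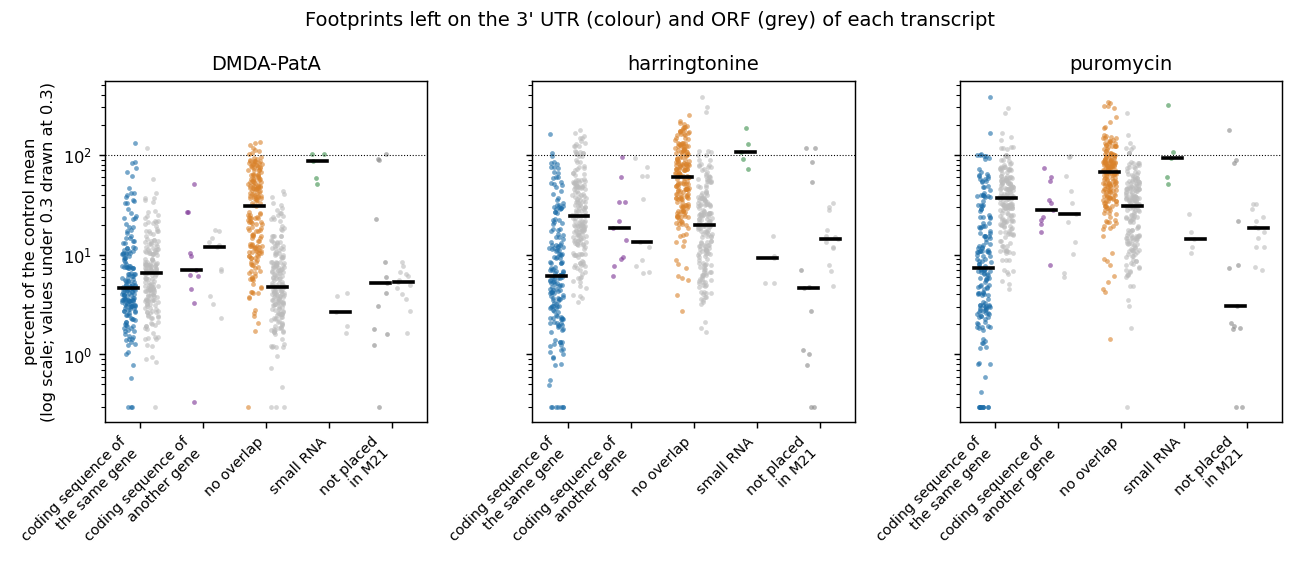
Percent of the control mean left under each drug, by annotation of the 3′ UTR, for the 3′ UTR (colour) and the ORF (grey) of the same 400 transcripts, 1 point per transcript and 1 panel per drug (log axis, bars are medians, values under 0.3% drawn at 0.3%). With coding sequence of the same gene the 3′ UTR medians of 4.62%, 6.09% and 7.40% lie below those of the ORF, and without overlap the medians of 30.6%, 60.8% and 66.9% lie above them.

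The 11 3′ UTRs with coding sequence of another gene were less uniform. Glod4, at chr11:76210571-76213914, had 3399 and 2896 reads on the 3′ UTR in control, 181 and 258 after DMDA-PatA, 361 and 204 after harringtonine and 585 and 485 after puromycin. The control libraries were far above the others and the puromycin libraries highest among the drugs. Its ORF had 1739 and 1849 reads in control, 227 and 412 after DMDA-PatA, 1726 and 1612 after harringtonine and 562 and 629 after puromycin. Harringtonine thus left the Glod4 ORF near its control value while the Gemin4 stretch behind it kept 8.98%. The ratio was 2.11 ± 0.32 (SE, log2) higher after DMDA-PatA than after harringtonine (edgeR's quasi-likelihood test, Benjamini-Hochberg adjusted p = 2.4e-06), and after harringtonine it fell by 2.45 ± 0.32 relative to puromycin (edgeR's quasi-likelihood test, Benjamini-Hochberg adjusted p = 3.3e-07). Of the 26-base windows of the Glod4 3′ UTR, 23.8% also occur in GENCODE M21 transcripts of Gm6330, and their part in the values was not tested.

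Chtf8, a subunit of the Ctf18 clamp loader, has a further coding ORF of the same symbol behind its stop codon. Its 3′ UTR had 740.3 and 631 reads in control, 23.4 and 21.9 after DMDA-PatA, 109.6 and 84.7 after harringtonine and 199 and 185 after puromycin. The 4 conditions did not overlap and ran from DMDA-PatA up through harringtonine and puromycin to control. The level was 3.07 ± 0.56 (SE, log2) lower after DMDA-PatA than after puromycin, as −3.07 (edgeR's quasi-likelihood test, Benjamini-Hochberg adjusted p = 1.7e-06). The ORF ran in the same order, with 681 and 544 reads in control, 87.1 and 76.3 after DMDA-PatA, 416 and 331 after harringtonine and 668 and 532 after puromycin, and no ratio passed the test. Aars kept more: its 3′ UTR had 433 reads in each control library, 75.1 and 155 after DMDA-PatA, 271 and 252 after harringtonine and 289.5 and 233 after puromycin, or 26.6%, 60.4% and 60.3% of control, where the Aars ORF kept 2.32%, 6.58% and 10.2%. Tymp, thymidine phosphorylase, kept least. Its 3′ UTR, mostly coding sequence of the copper chaperone Sco2, had 212 and 219 reads in control, 20.3 and 13.3 after harringtonine and 35.2 and 67.1 after puromycin, but 0.631 and 0.812 after DMDA-PatA. These are 2 sequenced reads in both DMDA-PatA libraries together against 422 in control, or 0.328% after scaling (exact 95% interval of counting error 0.0396% to 1.19%).

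Among the 189 3′ UTRs without overlap, Lrrc58, a leucine-rich repeat protein, stood apart in level and in spread. It had 7355 and 1236 reads on the 3′ UTR (chr16:37881463-37888858, 7396 nt) in control, 406 and 602 after DMDA-PatA, 7876 and 3573 after harringtonine and 4225 and 3258 after puromycin, against 5381 and 5714 transcriptome reads. The control libraries differed more than those of any drug, and only the DMDA-PatA libraries lay below both of them. The ORF had no more than 262 reads in any library, and the 3′ UTR value was 1733% of the ORF value in control. The level was lower after DMDA-PatA than after harringtonine by 3.51 ± 0.65 (−3.51; edgeR's quasi-likelihood test, Benjamini-Hochberg adjusted p = 8.3e-06) and lower than after puromycin by 2.89 ± 0.63 (−2.89; edgeR's quasi-likelihood test, Benjamini-Hochberg adjusted p = 0.00014). Of 7371 windows of 26 bases in this 3′ UTR, 747 also occur in GENCODE M21 transcripts of other genes. Among them, 532 occur in transcripts of Actb, the abundant cytoplasmic actin. The part of these shared windows in the Lrrc58 values was not tested.

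Wdr89 also shares sequence with an abundant transcript. Its 3′ UTR (chr12:75630596-75632317, 1722 nt) had 279 and 274 reads in control, 8.84 and 14.6 after DMDA-PatA, 90.3 and 51.8 after harringtonine and 53.8 and 102 after puromycin. The DMDA-PatA libraries were lowest, and those of the other drugs overlapped. Its ORF had 547 and 471 reads in control and kept a like share, with 29.7 and 40.6 after DMDA-PatA, 139 and 79.8 after harringtonine and 153 and 164 after puromycin. Of 1697 windows, 353 also occur in GENCODE M21 transcripts of Rplp2, a ribosomal stalk protein, and the part of these in the value was not tested. Over all members with a sequence, 150 of 387 had any window shared with a GENCODE M21 transcript of another gene. More than 10% of the windows were shared in 19 members and over 50% in 1. The longest AUG ORFs in the 3′ UTRs of Lrrc58 and Wdr89 are 402 nt and 345 nt, and their start codons are shown in capitals. Whether these ORFs lie in the windows shared with Actb and Rplp2 was not tested. The footprints are therefore not assigned to these ORFs. Lrrc58 lies at chr16:37883068-37883097 on the plus strand and Wdr89 at chr12:75631301-75631330 on the minus strand.
Lrrc58: acagactacctcATGaagatcctgactgag
Wdr89: cccgcagccgacATGcgctacgtcgcctct

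The relative density reached 499% for Lrrc58, 239.8% for Camta2, 136% for Tmem40, 121% for Prdm11 and 57.2% for Wdr89, where the median of the 189 was 1.44%. These 5 were picked after their values were seen. Snhg11, a host gene of small nucleolar RNAs, gives no such ratio because its listed ORF had at most 0.906 reads in a library. Its 3′ UTR had 63.7 and 84.3 reads in control, 54.9 and 45.5 after DMDA-PatA, 127 and 40.6 after harringtonine and 60.0 and 54.7 after puromycin. The Snhg11 libraries overlapped between control and harringtonine, and the puromycin libraries lay just below both control libraries. Camta2, a transcriptional activator that binds calmodulin, had 77.8 and 70.7 reads in control, 17.7 and 37.3 after DMDA-PatA, 97.4 and 55.3 after harringtonine and 39.3 and 33.6 after puromycin. Prdm11, of the PRDM family of zinc finger regulators, holds an AUG ORF of 2151 nt in its 3′ UTR of 9755 nt and had 73.1 and 48.0 reads in control, 5.05 and 13.8 after DMDA-PatA, 16.2 and 7.70 after harringtonine and 14.5 and 17.4 after puromycin. All 6 drug libraries of Prdm11 lay below both control libraries.

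Xbp1, the transcription factor of the unfolded protein response, has no overlapping coding sequence in the annotation, but the enzyme Ire1 splices its mRNA and shifts the frame, so that the active form is translated past the stop codon shown above. The 3′ UTR (chr11:5524905-5525893, 989 nt) had 147 and 126 reads in control, 10.7 and 7.31 after DMDA-PatA, 17.2 and 4.90 after harringtonine and 6.20 and 17.4 after puromycin. All drug libraries were far below both control libraries and overlapped each other. The drugs left 6.60%, 8.10% and 8.64% of control on the 3′ UTR and 15.5%, 32.9% and 36.1% on the ORF. Xbp1 was chosen after its values were seen, and no difference between drugs passed the test.

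Igf2, the fetal insulin-like growth factor, is the member without overlap that kept most after DMDA-PatA among those with a control mean of at least 50. It had 423 and 321 reads on the 3′ UTR (chr7:142650769-142653815, 3047 nt) in control, 234 and 632 after DMDA-PatA, 371 and 225 after harringtonine and 366 and 269.8 after puromycin, against 69694 and 63538 transcriptome reads. The libraries of all 4 conditions overlapped. On the ORF there were 3184 and 3459 reads in control, 162 and 341 after DMDA-PatA, 673 and 445 after harringtonine and 862 and 663 after puromycin. So 7.56%, 16.8% and 23.0% of control were left on the ORF, and 116%, 80.2% and 85.5% on the 3′ UTR, against medians of 30.6%, 60.8% and 66.9% on the 189 3′ UTRs without overlap. The ratio of 3′ UTR to ORF was higher after DMDA-PatA than after harringtonine by 1.64 ± 0.30 (SE, log2; edgeR's quasi-likelihood test, Benjamini-Hochberg adjusted p = 6.3e-05) and higher than after puromycin by 1.98 ± 0.31 (edgeR's quasi-likelihood test, Benjamini-Hochberg adjusted p = 2.1e-06).

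**Figure D4:**
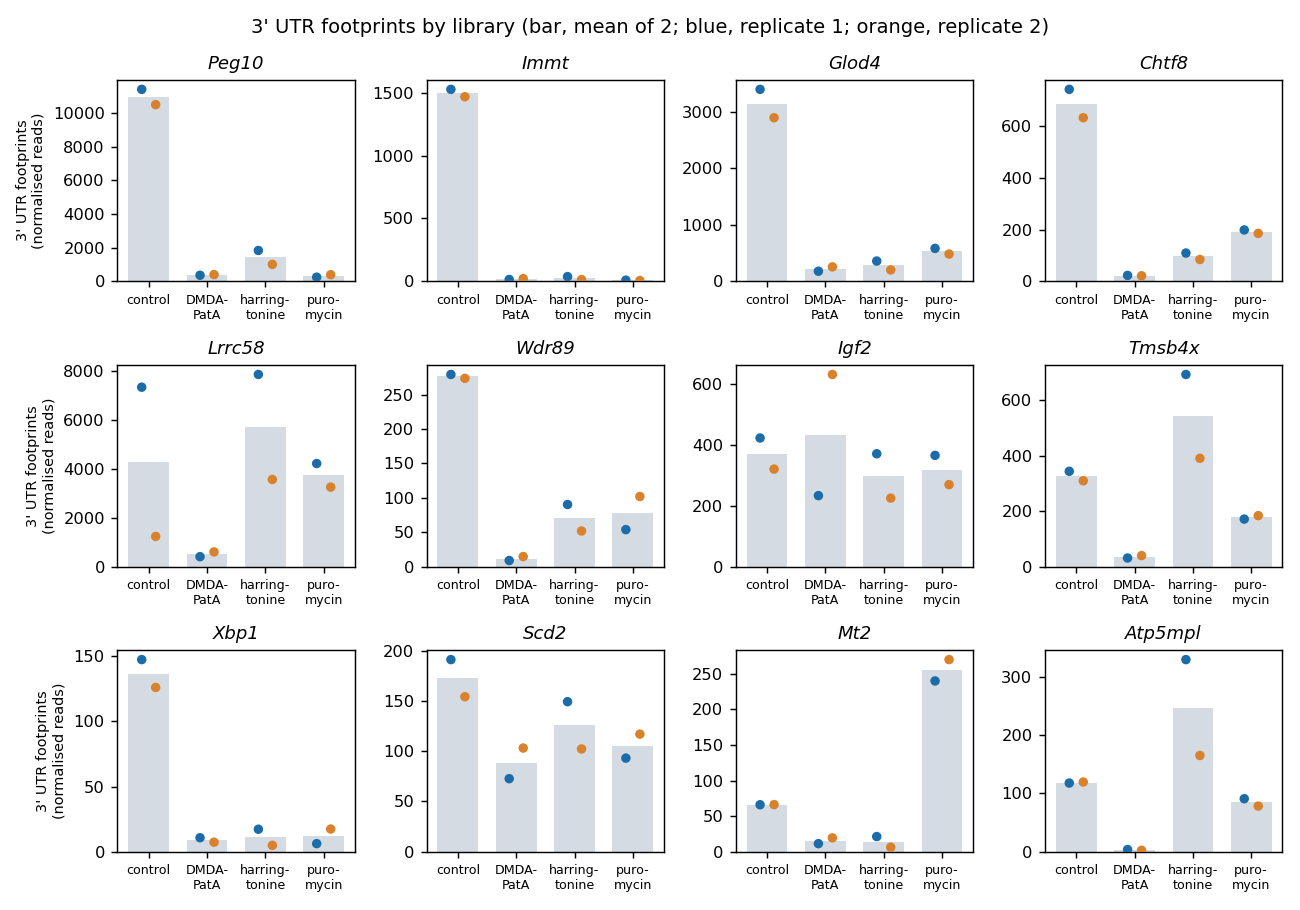
Normalised 3′ UTR reads of 12 members in the 8 ribosome profiling libraries (bar, mean of the 2 libraries, with blue for replicate 1 and orange for replicate 2). Peg10, Immt, Glod4, Chtf8 and Xbp1 drop under every drug, Igf2 and Scd2 overlap or nearly overlap between conditions, Tmsb4x and Atp5mpl are high after harringtonine, and Mt2 is high after puromycin.

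On some short 3′ UTRs the reads were near or above control after harringtonine and low after DMDA-PatA. Tmsb4x, thymosin β4, which sequesters actin monomers, had 344 and 310.0 reads on the 3′ UTR (chrX:167207093-167207500, 408 nt) in control, 30.9 and 39.8 after DMDA-PatA, 694 and 391 after harringtonine and 172 and 184 after puromycin. The groups did not overlap. Its ORF had 24447 and 22265 reads in control, 1925 and 3534 after DMDA-PatA, 30278 and 16310.4 after harringtonine and 12581 and 11405 after puromycin, so ORF and 3′ UTR moved together. The level was 3.94 ± 0.56 lower after DMDA-PatA than after harringtonine (−3.94 on the log2 scale; edgeR's quasi-likelihood test, Benjamini-Hochberg adjusted p = 1.9e-09).

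Atp5mpl, a small subunit of the mitochondrial ATP synthase, had 118 and 119.7 reads on its 3′ UTR of 135 nt in control, 3.79 and 2.44 after DMDA-PatA, 329.7 and 165 after harringtonine and 91.0 and 78.3 after puromycin. The DMDA-PatA libraries were at 2.62% of control and the harringtonine libraries at 208%. Between DMDA-PatA and harringtonine the level differed by −6.23 ± 0.66 on the log2 scale (edgeR's quasi-likelihood test, Benjamini-Hochberg adjusted p = 1.3e-17). Mrpl33, a protein of the mitochondrial ribosome, had 132 and 93.4 reads on 218 nt in control, 6.94 and 5.68 after DMDA-PatA, 106 and 52.5 after harringtonine and 47.6 and 47.3 after puromycin. Dmac1, an assembly factor of respiratory complex I, had 43.6 and 31.7 reads on 351 nt in control, 1.89 and 1.62 after DMDA-PatA, 47.7 and 21.7 after harringtonine and 26.9 and 39.8 after puromycin. In both, DMDA-PatA was lowest with no overlap. The ratio to the ORF was lower after DMDA-PatA than after harringtonine by 3.52 ± 0.48 for Mrpl33 (−3.52; edgeR's quasi-likelihood test, Benjamini-Hochberg adjusted p = 4e-07) and by 3.75 ± 0.63 for Dmac1 (−3.75; edgeR's quasi-likelihood test, Benjamini-Hochberg adjusted p = 1.3e-05). They are 2 of the 9 members whose ratio passed the test in this direction.

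Metallothionein and histone 3′ UTRs were high after puromycin. Mt2, a small metal-binding protein, had 66.0 and 66.2 reads on the 3′ UTR in control, 11.4 and 19.5 after DMDA-PatA, 21.3 and 6.30 after harringtonine and 239.9 and 269.8 after puromycin. Its paralogue Mt1 had 88.4 and 51.7, 8.84 and 8.12, 18.3 and 11.2, and 169.6 and 269 reads in the same order. In both, the puromycin libraries lay above every other library and the libraries of the other drugs below both controls. The ratio to the ORF was lower after harringtonine than after puromycin by 3.47 ± 0.40 for Mt2 (−3.47; edgeR's quasi-likelihood test, Benjamini-Hochberg adjusted p = 3.1e-08) and by 2.85 ± 0.41 for Mt1 (−2.85; edgeR's quasi-likelihood test, Benjamini-Hochberg adjusted p = 1.2e-06). Tnfrsf12a, the receptor of the cytokine TWEAK, had 35.4 and 28.1 reads in control, 1.26 and 4.87 after DMDA-PatA, 8.12 and 4.90 after harringtonine and 53.8 and 47.3 after puromycin, with puromycin again above both control libraries.

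Of 58 replication-dependent histone transcripts, whose mRNAs end in a stem-loop in place of a poly(A) tail, 5 were members, at a share of 2.8% over all transcripts: Hist1h2bk, Hist1h4c, Hist1h2ab, Hist1h2ah and Hist1h4d. Among the others Hist1h1c was highest with 19.4 reads in control, and 20 had no read, 12 of them with no transcriptome read in the region either. Hist1h4c had 38.9 and 32.6 reads on the 3′ UTR in control, 8.84 and 8.93 after DMDA-PatA, 20.3 and 9.10 after harringtonine and 109.6 and 133 after puromycin. Hist1h2ab had 36.5 and 33.5, 13.9 and 14.6, 35.5 and 29.4, and 91.0 and 117 reads, and Hist1h4d had 16.5 and 28.1, 3.16 and 1.62, 8.12 and 2.80, and 60.0 and 79.6 reads, in the same order. The puromycin libraries of these 3 lay above all others. In the annotation, the 3′ UTR of Hist1h2ah is too short for any of the sequence windows used above. Those of Hist1h2bk and Hist1h2ab hold only 53 and 48 windows, while Hist1h4c has 478 and Hist1h4d 797. Whether the histone reads lie at the stop codon, or outside the annotated 3′ UTR, was not tested. A 3′ UTR can pass the count filter through its 2 puromycin libraries alone, and how many histone 3′ UTRs did so was not counted. The histone counts that follow are therefore a description. Of the 16 histone 3′ UTRs tested, the level was lower after DMDA-PatA than after puromycin in 15. It was lower after harringtonine than after puromycin in 14, and none was higher. Over all 1292 3′ UTRs tested, 12.4% and 3.17% were lower. The median log2 differences were −3.83 and −2.68 for the histones and −0.49 and 0.45 over all tested. The ratio to the ORF was lower after harringtonine than after puromycin in 13 of 16 (median −2.39), where 4.33% of the 1292 tested were lower and the median was 0.94. It was lower after DMDA-PatA than after puromycin in 8 (median −1.31), where 3.17% of all tested were and the median was 1.49. Under the other scalings 13 to 16 histone levels were lower after DMDA-PatA than after puromycin and 15 lower after harringtonine than after puromycin, with none higher, but between DMDA-PatA and harringtonine the median of −1.15 turned to 0.47 with equal ORF totals. For Hist1h4c the ratio differed by −2.32 ± 0.42 between harringtonine and puromycin (edgeR's quasi-likelihood test, Benjamini-Hochberg adjusted p = 5.9e-05).

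Pluripotency genes gave 4 members of 26 listed, where 2.8% of all transcripts were members. They are Lin28a, the RNA-binding protein that blocks let-7 maturation, with a control mean of 73.5 reads, the transcription factor Sox2 with 44.6, the methylcytosine dioxygenase Tet1 with 42.7 and the ubiquitin ligase Trim71 with 29.2. Pou5f1, Esrrb and Dppa5a had no 3′ UTR read in the control or in the transcriptome libraries, so that their listed 3′ UTRs give no value here. The 3′ UTR of Sox2 (chr3:34651376-34652461) had 56.6 and 32.6 reads in control, 29.7 and 28.4 after DMDA-PatA, 123 and 72.1 after harringtonine and 6.20 and 9.95 after puromycin. Puromycin was lowest here, where it was highest for the histones, and both harringtonine libraries lay above both control libraries. Its ORF kept 3.45%, 11.4% and 32.1%. The ratio to the ORF was 4.98 ± 0.51 (SE, log2) higher after DMDA-PatA than after puromycin (edgeR's quasi-likelihood test, Benjamini-Hochberg adjusted p = 2.6e-10) and 4.97 ± 0.47 higher after harringtonine than after puromycin (edgeR's quasi-likelihood test, Benjamini-Hochberg adjusted p = 9.4e-11). Trim71 had 36.5 and 21.8 reads in control, 32.2 and 46.3 after DMDA-PatA, 98.4 and 48.3 after harringtonine and 29.0 and 43.5 after puromycin, with a ratio 2.04 ± 0.40 higher after harringtonine than after puromycin (edgeR's quasi-likelihood test, Benjamini-Hochberg adjusted p = 0.00014). Over the 9 pluripotency 3′ UTRs tested, 5 had a higher ratio after DMDA-PatA than after puromycin, where 39.7% of all tested did, and 6 after harringtonine than after puromycin, where 30.7% did. None was lower, and the medians were 1.41 and 1.36 against 1.49 and 0.94 over all tested. Only 4 of these 9 are members. The count filter can be passed through the 2 libraries of a single drug, and how many of the 9 did so was not counted. These pluripotency counts and medians are therefore a description.

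Lists of transcripts known for unusual termination were looked up beside the share of members over all transcripts, which is 2.8%. None of 20 termination, recycling and rescue factors was a member, and the highest was the release factor Etf1 with 12.9 reads. None of 12 mRNAs known for stop codon readthrough was one, with Ago1 highest at 6.53. Of 22 selenoproteins, which decode a UGA stop codon as selenocysteine with the help of a 3′ UTR element, only Selenof was a member. It had 28.3 and 30.8 reads in control, 6.31 and 2.44 after DMDA-PatA, 13.2 and 4.90 after harringtonine and 12.4 and 11.2 after puromycin, and its 3′ UTR holds 70 nt of coding sequence of another form. Of 4 frameshift mRNAs, Peg10 was a member, and Oaz2 (1.04 reads), Oaz1 (0.453) and Rtl1 (0.453) were not. The listed ORFs of Oaz2, Oaz1 and Rtl1 held only 48.9, 1.04 and 13.1 reads in control, so their low 3′ UTR values say little. Of 78 cytosolic ribosomal protein transcripts 52 had no 3′ UTR read in control, 31 of these without a transcriptome read there, and only Rpl9 was a member, with 15.3 and 32.6 reads in control and a listed ORF that held at most 4.72 reads there.

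The 5 members with a small RNA gene inside the 3′ UTR kept a median of 87.4% of control after DMDA-PatA, 106% after harringtonine and 93.8% after puromycin, and their ORFs kept 2.64%, 9.22% and 14.4%. Whether the reads lie on the small RNA was not tested. The median relative density of these 5 was 0.457%, against 0.374% over all transcripts. Scd2, a stearoyl-CoA desaturase, holds Mir5114 and had 191 and 154 reads on the 3′ UTR in control, 72.6 and 103 after DMDA-PatA, 149 and 102 after harringtonine and 93.1 and 117 after puromycin. Igf2bp1, an RNA-binding protein of early development, holds Mir3063 and had 271 and 168 reads in control, 106 and 151 after DMDA-PatA, 262 and 141 after harringtonine and 119.9 and 107 after puromycin. Vmp1, a membrane protein of autophagy, holds Mir21a and had 55.4 and 42.6 reads in control, 48.0 and 51.9 after DMDA-PatA, 91.3 and 33.6 after harringtonine and 43.4 and 48.5 after puromycin. The Vmp1 libraries of all conditions overlapped, while all 6 drug libraries of Scd2, and the DMDA-PatA and puromycin libraries of Igf2bp1, were below both of their controls. The ratio to the ORF was higher after DMDA-PatA than after puromycin by 3.71 ± 0.35 (SE, log2) for Scd2 (edgeR's quasi-likelihood test, Benjamini-Hochberg adjusted p = 6.7e-11) and by 3.11 ± 0.34 for Igf2bp1 (edgeR's quasi-likelihood test, Benjamini-Hochberg adjusted p = 2.1e-09).

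The 13 members whose listed transcript could not be placed in the annotation resembled those with coding sequence of the same gene in their medians, with 5.21%, 4.68% and 3.06% of control left. They were not uniform. Fxr1, a paralogue of the fragile X protein, had 156 and 176 reads on the 3′ UTR in control, 5.68 and 8.12 after DMDA-PatA, 7.10 and 8.40 after harringtonine and none in either puromycin library, while its ORF kept 11.9% after puromycin. A floor of 3 reads over both puromycin libraries was set in place of the missing reads. The mean 3′ UTR value was 2.96 times this floor after DMDA-PatA and 3.33 times after harringtonine. The counting error of the DMDA-PatA and harringtonine reads is not included in these folds. Vangl1, a protein of planar cell polarity, had 99.0 and 82.5 reads in control and at most 2.07 in any drug library, with 3 DMDA-PatA reads against 175 in control (1.19% after scaling, exact 95% interval of counting error 0.243% to 3.53%). In contrast Hnrnpa2b1, an RNA-binding protein of splicing and transport, kept 101%, 118% and 177% of control, and Eif4h, a partner of eIF4A, kept 91.0%, 85.1% and 88.2%. Tmem150a, with a control mean of 25.7 reads, had no read in any of the 6 drug libraries.

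Over the 400, no read was seen in both libraries of 4 members after DMDA-PatA, 9 after harringtonine and 13 after puromycin, at a floor of 3 reads per condition, which is 1.07, 1.24 and 2.33 normalised reads. Eapp, a regulator of E2F activity, had 249.9 and 228 reads in control, 7.58 and 8.93 after DMDA-PatA, 5.07 and 0.700 after harringtonine and none after puromycin. Its ORF had 120.2 and 149.6 reads in control and 108 and 162 after puromycin, so the ORF was unreduced where the 3′ UTR was empty. With the floor in place of the missing puromycin reads, the 3′ UTR to ORF ratio of Eapp was 16.9-fold higher after DMDA-PatA than after puromycin. The counting error of its other reads is not included in this fold. Igtp, an interferon-inducible GTPase, had 164 and 149.6 reads in control, none and 0.812 after DMDA-PatA, 2.03 and 3.50 after harringtonine and none and 3.73 after puromycin. Its 1 DMDA-PatA read against 304 control reads is 0.228% after scaling (exact 95% interval of counting error 0.00575% to 1.28%). Krt10, a keratin, was low after DMDA-PatA only, with 44.8 and 36.3 reads in control, 0.631 and none after DMDA-PatA, 42.6 and 17.5 after harringtonine and 24.8 and 33.6 after puromycin.

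Across the group, 191 members kept under 10% of control after DMDA-PatA, 135 after harringtonine and 120 after puromycin, and 135, 114 and 102 of these hold coding sequence of the same gene. More than 50% was kept by 73, 137 and 154 members, of which 58, 109 and 122 have no overlap. The medians over all 400 were 10.6%, 27.2% and 34.3% on the 3′ UTR and 5.60%, 21.3% and 32.0% on the ORF. In the libraries taken one by one, the 3′ UTR medians with coding sequence of the same gene were 3.67% and 5.95% after DMDA-PatA, 7.54% and 4.39% after harringtonine and 6.43% and 8.23% after puromycin. Without overlap they were 21.4% and 41.0%, 66.8% and 50.4%, and 49.9% and 84.4%. The medians of the 2 groups stayed apart in each of the 6 drug libraries.

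On the log2 scale the fitted difference of the 3′ UTR from control had a median of −3.20 after DMDA-PatA, −1.87 after harringtonine and −1.53 after puromycin over the 400, and of −1.01, −0.02 and −0.45 over the 1292 3′ UTRs that passed the count filter. Scaling to equal ORF totals in place of spike-in RNA turned the medians of the 400 to 1.16, 0.86 and 0.91. The ratio of 3′ UTR to ORF, which is free of the scaling, had medians of −0.27, −2.09 and −2.11 relative to control with coding sequence of the same gene and of 2.37, 1.50 and 1.19 without overlap. All 400 passed the count filter, 138 of them only with the control libraries, in which they had been chosen to be high, so these medians are given without a reading.

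The ORFs of the members, which the rule did not use, fell under each drug. Of 389 that could be tested, 388 were lower after DMDA-PatA (99.8% of 12165 ORFs tested), 322 after harringtonine (94.0%) and 305 after puromycin (91.2%) by edgeR's quasi-likelihood test at a Benjamini-Hochberg adjusted p under 0.05, and 0, 4 and 3 were higher (0.0%, 0.279% and 0.222%). The median log2 differences from control were −4.16, −2.29 and −1.65 among members and −4.33, −2.99 and −2.50 over all ORFs. The shares were thus alike after DMDA-PatA, while 82.8% and 78.4% of the members' ORFs were lower after harringtonine and puromycin, less than over all ORFs, a difference that was not tested.

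Between drugs, the ratio of 3′ UTR to ORF, in which the scaling of libraries drops out, was highest after DMDA-PatA. It was higher after DMDA-PatA than after harringtonine in 124 members and lower in 9, where 19.2% and 5.19% of the 1292 tested were higher and lower (edgeR's quasi-likelihood test, Benjamini-Hochberg adjusted p under 0.05). The median log2 difference was 1.16 among members and 0.48 over all tested. Against puromycin the DMDA-PatA ratio was higher in 165 members and lower in 23 (39.7% and 3.17% of all tested), with medians of 1.50 and 1.49 that were alike for members and all tested. The harringtonine ratio was higher than that of puromycin in 74 members and lower in 36 (30.7% and 4.33%), with medians of 0.39 and 0.94. Among the 262 members that pass the count filter without the control libraries 101, 151 and 97 were called. Fewer passed without some libraries: of the 133 members between DMDA-PatA and harringtonine 85 and 75 passed without DMDA-PatA replicate 1 or 2, and of the 110 between harringtonine and puromycin 70 without harringtonine replicate 1 and 73 without puromycin replicate 2.

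**Figure D5:**
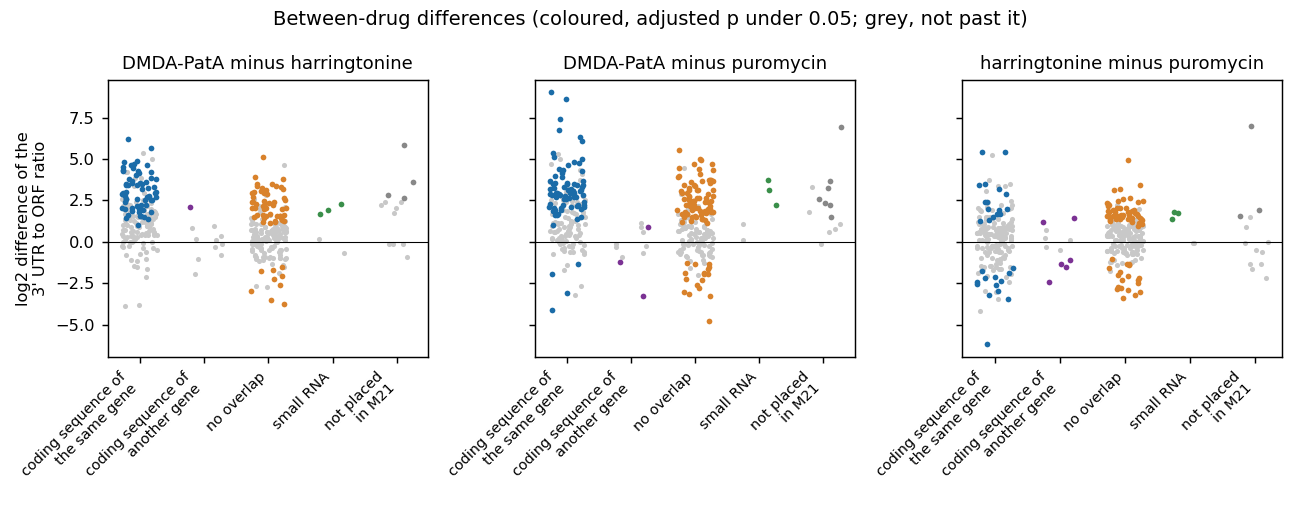
Log2 difference in the ratio of 3′ UTR to ORF footprints between 3 drug pairs, by annotation of the 3′ UTR, 1 point per member, coloured where the adjusted p of edgeR's quasi-likelihood test is under 0.05. Between DMDA-PatA and harringtonine 64 members with coding sequence of the same gene were higher and 0 lower, while without overlap 52 were higher and 9 lower. Over all 1292 3′ UTRs tested, 19.2% were higher and 5.19% lower. For members with no read in a drug the plotted value depends on the prior count of the fit.

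By annotation, 64 of the 182 members with coding sequence of the same gene had a higher ratio after DMDA-PatA than after harringtonine and 0 a lower one, with a median difference of 1.69. Without overlap, 52 of 189 were higher and 9 lower, with a median of 0.65. Against puromycin the counts were 78 higher and 4 lower with coding sequence of the same gene (median 2.07), and 76 higher and 17 lower without overlap (median 1.13). Between harringtonine and puromycin 16 were higher and 13 lower with coding sequence of the same gene, and 50 higher and 19 lower without overlap. Over all 1292 3′ UTRs tested, 19.2% were higher and 5.19% lower after DMDA-PatA than after harringtonine. For the other 2 pairs, in the order above, the shares were 39.7% and 3.17%, and 30.7% and 4.33%. The counts without overlap are not read as particular to these members. A difference between these annotation groups in the drug contrasts was not tested.

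The level of the 3′ UTR depends on the scaling of libraries, unlike the ratio. With the spike-in scaling the level was lower after DMDA-PatA than after harringtonine in 55 members and higher in 4 (15.0% and 0.387% of all tested), lower after DMDA-PatA than after puromycin in 92 and higher in 5 (12.4% and 0.542%), and lower after harringtonine than after puromycin in 25 and higher in 5 (3.17% and 3.25%). The medians were −0.67, −0.63 and −0.07 among members and −1.06, −0.49 and 0.45 over all tested. TMM, which centres the 3′ UTRs tested, moved the medians over all tested to −0.01, 0.16 and 0.06 and gave 53 higher and 21 lower, 24 higher and 71 lower, and 9 higher and 75 lower. DESeq2 size factors gave 45 and 20, 22 and 72, and 7 and 73, and scaling to equal ORF totals gave 125 and 16, 169 and 34, and 45 and 40. A supplementary sheet of the study has the size factors of the DMDA-PatA and harringtonine libraries exchanged, so which assignment is right is unsure, and the printed levels of both drugs depend on it. Exchanging them gave 16 and 47, 11 and 96, and 7 and 59, with a median of −0.19 between DMDA-PatA and harringtonine. The direction between DMDA-PatA and harringtonine thus changed with the scaling. Among the 262 members that pass the count filter without the control libraries 53, 82 and 26 were called. Single libraries mattered as well: the 59 members of that pair became 16, 29 and 23 without DMDA-PatA replicate 1, DMDA-PatA replicate 2 and harringtonine replicate 1, and 118 without harringtonine replicate 2. The 97 against puromycin became 48 without DMDA-PatA replicate 1 and 52 without puromycin replicate 2, and the 30 between harringtonine and puromycin became 13 without either control library, 9 without puromycin replicate 1 and 8 without puromycin replicate 2. In the spike-in scaling 40 of the 55 lower members of that pair, and 64 of the 92 against puromycin, have no overlap.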

How the data were processed

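Ribosome profiling libraries of CGR8 cells in 4 conditions and control transcriptome libraries were analysed, 10 libraries in all with 2 per group as the labels assign them. The authors aligned reads with LifeScope to mm10 (GRCm38), kept unique matches of 26 to 36 nt with a match quality of at least 10, shifted them by an offset and counted them per ORF, 5′ UTR and 3′ UTR of Ensembl 76 transcripts. The submitters' processing notes also name Picard 1.38. The deposited signal values are reads divided by size factors, from spike-in RNA for ribosome profiling and between replicates for the transcriptome. Whole reads were recovered from the value of 1 read: 100% of values were whole within 0.01 read. For its ribosome release score the study starts 3′ UTR reads after the stop codon and ends them at the next AUG. The deposited 3′ UTR values cannot end there, since Glod4 holds 3399 control reads with an AUG ORF from base 15, and whether they start there is not stated. Whether counting used strand is not given in the sources used here, so reads of overlapping genes on opposite strands may not be told apart.

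Coding transcripts with 1 listed ORF were placed in GENCODE M21 on GRCm38, whose 3′ UTRs can differ from Ensembl 76. Of the 400 members, 311 matched in position, 72 in length with a shifted start, 4 by sequence and 13 not at all. A 3′ UTR counted as overlapping with at least 3 nt of coding sequence on its strand. The quasi-likelihood test of edgeR (version 4.0.16, run under R 4.3.3 together with version 3.58.1 of limma), at a Benjamini-Hochberg adjusted p under 0.05, was applied to the recovered reads on the authors' size factors with at least 10 reads in at least 2 of 8 libraries. The 3′ UTR to ORF ratio was tested as the region by condition term with a term per library. The script was tested on simulated data. DESeq2 1.42.0, TMM, other scalings, no count filter, a replicate block, left-out libraries, a threshold of 50 and narrower member sets were alternatives. Summaries and plots were made with matplotlib 3.10.9, pandas 2.3.3 and numpy 2.4.6 under Python 3.11.15. Intervals and floors cover counting error only.

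The members and gene lists were chosen with earlier results of these data known. Named genes are the 12 members highest in control, the 6 with the highest 3′ UTR to ORF ratio, the extremes of each drug contrast and of the share left, the listed genes, the leading genes of each annotation group and the neighbours of the threshold. Wdr89, Xbp1, Aars, Hist1h4d, Hnrnpa2b1, Eif4h, Tmem150a, Snhg11 and the high-density 3′ UTRs were added after their values were seen.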

Additional observations from a re-analysis of the deposited data

Results flagged for a closer look

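The 5′ UTRs of the 400 transcripts were in none of the comparisons above. Both DMDA-PatA libraries lay above both control libraries on 118 of these 5′ UTRs (29.5%, and 18.1% of all 14300), both harringtonine libraries on 197 (49.25%, and 37.4% of all) and both puromycin libraries on 96 (24.0%, and 15.9% of all). They are listed because a signal above the control libraries appeared outside the main measurement. The sizes of these differences and the read numbers behind them are not given, and no test was run. For 5′ UTRs that hold ORFs above its footprint cutoff, the study reports a fall after DMDA-PatA at the median.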

How the results depend on the processing

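Precision was limited by 2 libraries per condition, and by few reads on most 3′ UTRs after the drugs. The number of members was 144 at a mean of at least 50, 393 by recovered reads and 321 with at least 20 in each control library. Pairs and triplets below are in the order DMDA-PatA against harringtonine, DMDA-PatA against puromycin and harringtonine against puromycin, or DMDA-PatA, harringtonine and puromycin against control. The members called by level were 59, 97 and 30. TMM gave 84, DESeq2 size factors 80 and exchanging the DMDA-PatA and harringtonine size factors, as a supplementary sheet of the study has them, 66 for the last pair. They were 141, 203 and 85 with equal ORF totals, 21, 59 and 11 with no count filter, 32 and 14 for the outer pairs with the DESeq2 test, 23, 40 and 12 at the threshold of 50, and 19 for the last pair without overlapping annotation. The ranges with 1 library left out were 16 to 118, 48 to 111 and 8 to 41. The members called by ratio were 133, 188 and 110. They were 80, 121 and 51 with no count filter, 84 and 45 for the outer pairs with DESeq2, 58, 76 and 39 at the threshold of 50, 65, 100 and 72 without overlapping annotation, and 75 to 136, 131 to 191 and 70 to 116 with 1 library left out. Many of these falls go with fewer members or more tests by construction; the other causes were not tested.

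With the replicate number as a block 46, 82 and 12 members were called by level and 126, 186 and 109 by ratio. The numbers showed at most a weak pairing of the libraries. Correlations of the deviations of libraries with the same number ran from −0.033 to 0.032 on 3′ UTRs and from −0.017 to 0.104 on ORFs. On ORFs they were 0.090 to 0.104 among control, DMDA-PatA and harringtonine and negative between each of these and puromycin. The block moved the harringtonine ratio median to −0.14.

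The level medians against control were −3.20, −1.87 and −1.53. They were −2.14 with TMM and −2.25 with DESeq2 size factors for DMDA-PatA, 1.16, 0.86 and 0.91 with equal ORF totals, which reversed them, −4.42, −3.78 and −3.42 at the threshold of 50, −1.99, −0.80 and −0.59 without overlapping annotation, and −2.34, −1.17 and −0.94 when control library 1 chose 492 members and control library 2 was compared. Choosing 346 on library 2 gave −2.31 for harringtonine. Without the 138 members that pass the count filter only with control, an alternative chosen after seeing the data, they were −2.09, −0.96 and −0.75. Leaving out 1 library gave −3.40 to −2.97, −2.35 to −1.54 and −1.80 to −1.29. The ratio medians were 0.63, −0.09 and −0.11. They were −0.30, −1.67 and −1.94 at the threshold of 50, 2.28, 1.47 and 1.18 without overlapping annotation, 1.85, 1.17 and 0.97 without those 138, 1.33, 0.78 and 0.59 when chosen on library 1, and 0.53 and −0.44 for DMDA-PatA and harringtonine when chosen on library 2. The harringtonine median was −0.14 with DESeq2 and −0.024 without members sharing over 10% of their windows, also chosen after seeing the data. Leaving out 1 library gave 0.63 to 0.79, −0.22 to 0.0057 and −0.29 to 0.12, with 0.0057 without harringtonine replicate 2. The members' ORFs that were lower ranged from 381 to 389, 292 to 349 and 230 to 329 with 1 library left out.

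Of the named calls between drugs, 52 of 95 by ratio and 29 of 58 by level passed in every alternative. The calls printed with a p for single genes are among these. Reversed were Krt10, whose ratio against puromycin ran from −7.21 to 0.72 without DMDA-PatA replicate 1 or 2, and Gm38394, whose levels after DMDA-PatA were 0.16 against harringtonine and 0.092 against puromycin with equal ORF totals.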
